A study of Homo sapiens with 6 samples.

Results

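The genes described here encode the proteins of the cytosolic ribosome, the particle that translates messenger RNA in the cell body. They were taken from the platform annotation as every symbol of the RPL, RPS and RPLP series, together with RPSA, on a probe set assigned to a single gene. This gave 52 genes of 19775 with a probe set of their own, measured by 111 probe sets, and each gene was read at the probe set with the highest mean log2 signal over the 6 arrays. The 52 genes lie on 19 chromosomes, most often on chromosome 19 with 7 genes and chromosome 3 with 5. Another 15 ribosomal protein symbols occurred only on probe sets that the annotation assigns to several genes, so no value is given for them.

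The cells were Flp-In T-REx 293, made from HEK293, a human embryonic kidney line, so that a transgene can be placed at 1 known genomic site. In 3 samples the cells had received siRNAs against TET1, TET2 and TET3 together, and in 3 samples a pool of non-targeting siRNAs, here called control siRNA. RNA was taken 96 h later in both groups. Every cell population also carried an inducible GFP transgene, which was left off. The labels number 3 GFP clones and give each of them 1 array with TET siRNA and 1 with control siRNA, so clone number pairs the groups. All clones derive from 1 cell line, and an siRNA leaves part of the targeted transcripts in place. TET enzymes act on methylated cytosines in DNA by oxidising them, and the study asked how the transcriptome differs when all 3 are depleted.

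A human ribosome holds 1 copy of nearly every ribosomal protein, in a large and a small subunit. Cells therefore make these proteins in near equal numbers, and the mRNAs are among the most abundant of a dividing cell. Most of them begin with a C followed by a run of pyrimidines, the terminal oligopyrimidine or TOP motif. Through that motif their translation is tied to nutrients and growth signals by the kinase complex mTORC1 and the RNA-binding protein LARP1. TOP control acts on translation, whereas arrays measure RNA.

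The start of the transcript is shown for 10 of the genes whose values are given below, because the pyrimidine run is the feature these mRNAs are known to share. The stretches come from RefSeq (assembly GRCh38.p14) and hold 30 bases before the annotated start and 20 from it on, 5′ to 3′ on the gene's strand. Capitals mark the C at the start and the unbroken pyrimidines after it, where at least 4 follow. The first 4 genes had the lowest mean differences of the 49 brightly measured genes. They were RPL37A at chr2:216498814-216498863 on the plus strand, RPS16 at chr19:39435930-39435979 on the minus strand, RPLP1 at chr15:69452788-69452837 on the plus strand and RPS18 at chr6:33272045-33272094 on the plus strand.
RPL37A: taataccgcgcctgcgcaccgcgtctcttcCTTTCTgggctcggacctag
RPS16: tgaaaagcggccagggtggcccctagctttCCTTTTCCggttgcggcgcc
RPLP1: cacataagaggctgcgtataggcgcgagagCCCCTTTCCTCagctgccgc
RPS18: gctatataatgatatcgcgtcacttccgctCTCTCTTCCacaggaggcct
The next 4 are the S6 kinase substrate RPS6, the small-subunit protein RPS9, the Diamond-Blackfan anaemia gene RPS19 and the decoding-centre protein RPS23. They were RPS6 at chr9:19380217-19380266 on the minus strand, RPS9 at chr19:54200828-54200877 on the plus strand, RPS19 at chr19:41860225-41860274 on the plus strand and RPS23 at chr5:82278335-82278384 on the minus strand.
RPS6: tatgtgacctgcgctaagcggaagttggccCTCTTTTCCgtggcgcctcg
RPS9: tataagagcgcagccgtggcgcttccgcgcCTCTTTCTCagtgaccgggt
RPS19: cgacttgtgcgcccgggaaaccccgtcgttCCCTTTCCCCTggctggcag
RPS23: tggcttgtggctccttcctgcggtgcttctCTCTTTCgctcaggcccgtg
The last pair, the X-linked RPS4X and the mRNA-exit protein RPS28, had no such run at the annotated base. They were RPS4X at chrX:72277229-72277278 on the minus strand and RPS28 at chr19:8321466-8321515 on the plus strand.
RPS4X: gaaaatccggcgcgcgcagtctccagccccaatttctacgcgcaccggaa
RPS28: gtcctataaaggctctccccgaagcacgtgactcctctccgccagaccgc
The motif was searched on the gene's strand only, at the annotated start, and it overlapped no other motif searched. Of 46 ribosomal protein genes with a promoter entry, 34 (73.9%) began this way, against 1404 of 27305 genes with an entry (5.14%). Where a gene had several annotated starts, it was counted if any of them matched, and a matching start was the first choice for display. With the start allowed to move by up to 5 bases, 87.0% of the ribosomal protein genes and 25.2% of all genes held it. A match describes these letters and does not show that the RNA starts there.

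The knockdown itself was visible in the deposited signals. TET1 read 448, 621 and 685 with TET siRNA in clones 1, 2 and 3, against 3073, 3123 and 3470 with control siRNA, and 17.9% of the control signal was left. TET2 and TET3 were left at 46.8% and 42.9%, with no overlap between the groups. In limma, TET1 passed with an adjusted p of 0.0023, while TET2 (0.198) and TET3 (0.0678) passed only with clone number as a replicate block, at 0.0047 and 0.0021. All 8 markers of HEK293 cells lay in the upper 50% of signals, and their summed signal was 60568 to 72678 with TET siRNA and 70462 to 75467 with control siRNA. Of 12 markers of blood, fibroblast, endothelial, liver and squamous cells, 3 (COL1A1, HBB and PECAM1) lay in the upper 50%, with summed signals of all 12 of 1797 to 2057 with TET siRNA and 1867 to 2280 with control siRNA. The deposited values had been scaled by the authors to a trimmed mean of 1000.13 on each array.

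Of the 52 genes, 49 had a mean log2 signal above 12 and are called bright below, and 3 did not. All 52 were in the upper 50% of probe sets, the part that was tested. Signals reflect both RNA and how well a probe binds, so differences in RNA are read here between arrays and not between genes. Signals of different probe sets serve only to sort probe sets and lists by brightness. In bulk RNA, fewer cells of a kind and less RNA per cell cannot be told apart.

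No ribosomal protein gene differed between TET siRNA and control siRNA beyond the spread of the arrays. In limma without a clone term, 0 of 52 had a Benjamini-Hochberg adjusted p under 0.05 and 0 had an unadjusted p under 0.05, where 0.0146% and 6.61% of all 27306 tested probe sets did. With clone number as a replicate block the counts were again 0 and 0, against 1.03% and 14.4% of all probe sets. Over the 49 bright genes the mean difference, TET siRNA minus control siRNA, lay between -0.11 for RPL37A and 0.04 for RPS28 on the log2 scale. The median was -0.03, with 39 genes below 0 and 10 above, and the median over all tested probe sets was 0.02. For 194 probe sets with no ribosomal protein symbol, at least as bright as the dimmest of the 49, the median was -0.02. Over all 52 genes the median was also -0.03, and it was 0.08 without the TET siRNA array of clone 1 and 0.01 without the control array of clone 3. The median SE of a ribosomal protein gene was 0.11, against 0.17 over all probe sets. Among the bright genes the 95% intervals of the mean difference lay between -0.41 and 0.30, and a difference beyond these bounds lies outside the interval of every bright gene. The 3 arrays per group set that width.

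The clones gave different differences in the same genes. In clone 1 every one of the 49 bright genes read lower with TET siRNA, with a median difference of -0.21 and a range of -0.30 to -0.07. In clone 2 all 49 read higher, with a median of 0.15 and a range of 0.05 to 0.30. In clone 3 the median was -0.05, with 38 genes lower and 11 higher and a range of -0.18 to 0.16. On the linear scale the medians amount to -13.3%, 11.1% and -3.26%. A negative difference in clone 1 together with a positive one in clone 2 was found in 49 of the 52 genes and in 22.7% of all tested probe sets. One sign in all 3 clones was found in 1 of the 52, the dim RPL27A, and in 36.2% of all probe sets. With 1 array per treatment in each clone, the difference between clones in the response to TET siRNA could not be tested.

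**Figure D1:**
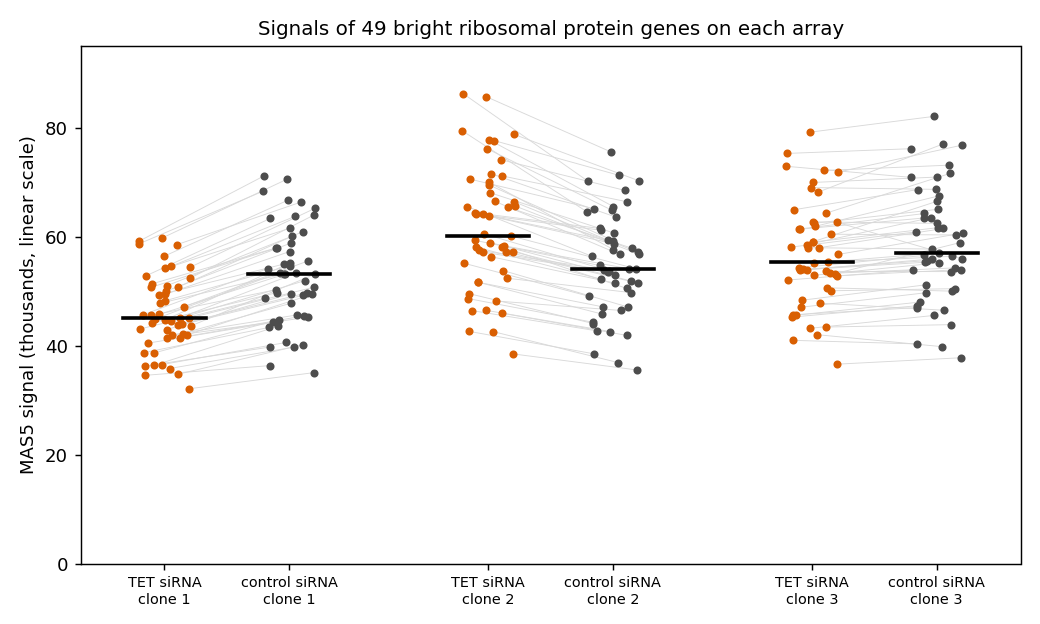
MAS5 signal on a linear scale (vertical axis) of the 49 bright ribosomal protein genes on each of the 6 arrays, 1 point per gene, with a line joining a gene within a clone and a bar at the median. The bar is lowest for TET siRNA in clone 1 (45061) and highest for TET siRNA in clone 2 (60133).

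Within each clone the genes lay close together. The SD of the difference over the 49 genes was 0.05 in clone 1, 0.06 in clone 2 and 0.06 in clone 3, smaller than the median SD of a gene over the clones, 0.17. The median SD over the clones was 0.19 over all tested probe sets. For probe sets with no ribosomal protein symbol it was 0.33 in the dimmest band of signal tested, 0.10 to 0.16 in the bands between the 70th and the 99.5th percentile, and 0.16 in the top 0.5%. Across the 49 genes the clone 1 and clone 2 differences correlated at -0.43, clones 1 and 3 at 0.29 and clones 2 and 3 at 0.20. These are descriptions across genes that share arrays. The median signal of the bright genes was 45061, 60133 and 55349 with TET siRNA in clones 1, 2 and 3, against 53160, 54134 and 57044 with control siRNA. The TET siRNA arrays thus held both extremes, and the control arrays lay between them. The TET siRNA array of clone 1 was the lowest of the 6 for 49 of 52 genes, as it was for 20.9% of all tested probe sets. It was the lowest while the TET siRNA array of clone 2 was the highest in 46 of the 52, and in 5.75% of all probe sets. Among the bright genes, the highest array was the control of clone 3 for RPL37A, RPL9 and RPL36.

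**Figure D2:**
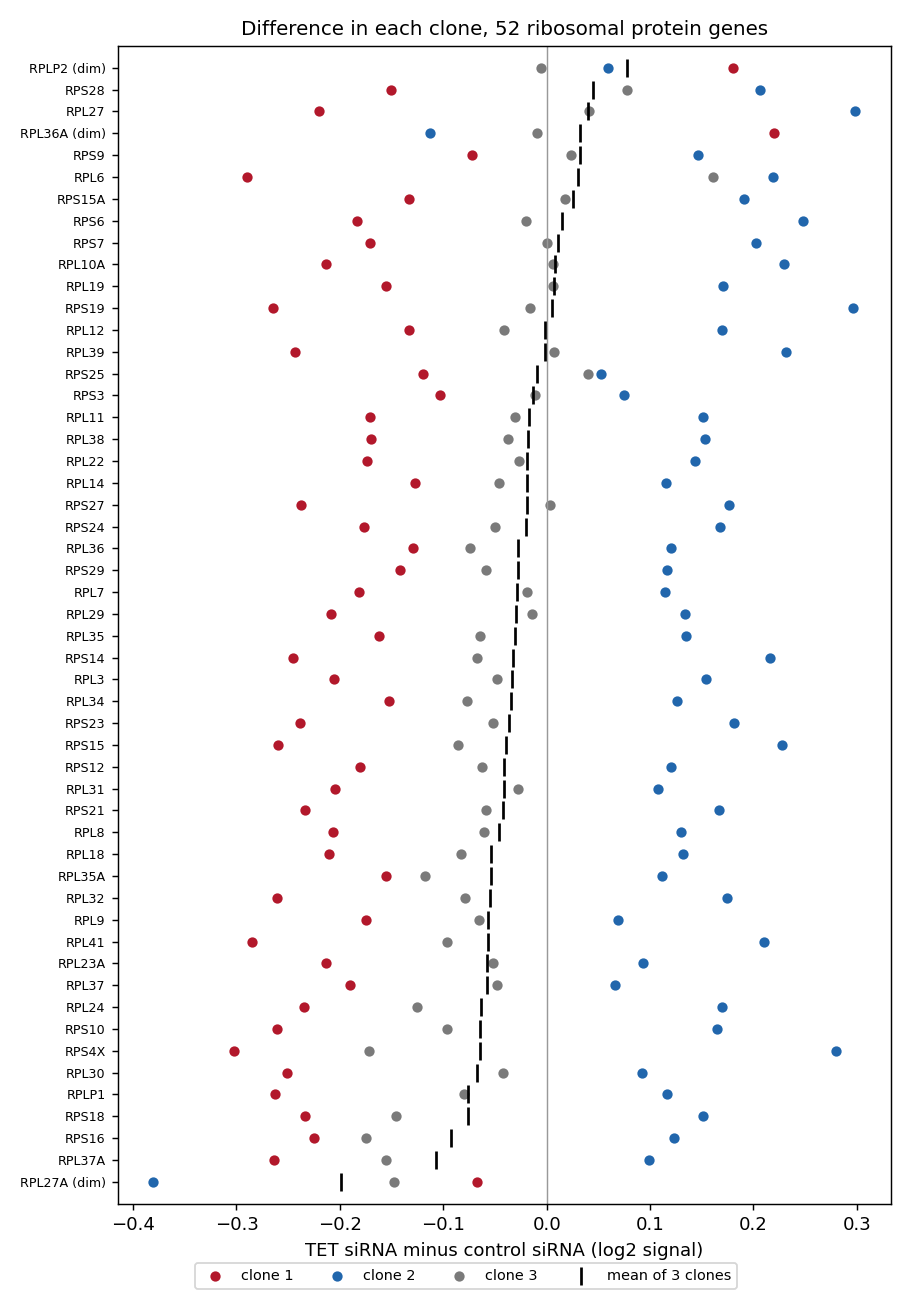
TET siRNA minus control siRNA on the log2 scale (horizontal axis) in each clone for the 52 ribosomal protein genes (rows), with a tick at the mean of the 3 clones. Every bright gene has its clone 1 point below 0 and its clone 2 point above 0, and the 3 dim genes do not.

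Among large-subunit proteins, the P stalk, which recruits elongation factors, was represented by RPLP1 (Entrez gene 6176). RPLP1 read 52813, 70579 and 64940 with TET siRNA in clones 1, 2 and 3, against 63363, 65124 and 68654 with control siRNA. Clone 1 was lower, clone 2 higher and clone 3 slightly lower with TET siRNA, and the groups overlapped. The clone differences were -0.26, 0.12 and -0.08, and the mean was -0.08 with an SE of 0.11 (limma adjusted p = 0.942). RPL12, at the base of the stalk, had clone differences of -0.13, 0.17 and -0.04. RPL11 (Entrez gene 6135) forms the 5S RNP with RPL5 and 5S rRNA and can bind MDM2, the ligase of p53. It read 45071, 57265 and 52840 with TET siRNA, against 50736, 51583 and 53973 with control siRNA. Again the TET siRNA array of clone 1 was the lowest and that of clone 2 the highest. The clone differences were -0.17, 0.15 and -0.03.

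RPL3, RPL8 and RPL29 were listed as neighbours of the peptidyl transferase centre, where peptide bonds form. Their mean differences were -0.03, -0.05 and -0.03, and the medians of the 3 genes in clones 1, 2 and 3 were -0.21, 0.13 and -0.05. The exit tunnel, through which the new chain leaves, was represented by RPL19, RPL22, RPL23A, RPL31, RPL35 and RPL39. The medians of these 6 genes were -0.19, 0.14 and -0.03 in clones 1, 2 and 3. Within this group RPL23A had the lowest mean difference, -0.06, and RPL19 the highest, 0.01. RPL39, which lines the tunnel and is X-linked, had clone differences of -0.24, 0.23 and 0.01, and its mean difference was 0.00. The 29 bright large-subunit genes had medians of -0.21, 0.13 and -0.05.

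The lowest mean difference of the bright genes was that of RPL37A (Entrez gene 6168), a zinc-finger protein of the large subunit. RPL37A read 50766, 71159 and 64309 with TET siRNA, against 60948, 66430 and 71633 with control siRNA. It was lower with TET siRNA in clones 1 and 3 and higher in clone 2, with overlapping groups. The clone differences were -0.26, 0.10 and -0.16, and the mean was -0.11 with an SE of 0.12 (limma adjusted p = 0.925, and 0.630 with the replicate block). RPL30, another large-subunit protein, had a mean of -0.07. RPL6 (Entrez gene 6128) departed most from the others in clone 3. RPL6 read 52373, 66453 and 62611 with TET siRNA, against 64014, 57114 and 55994 with control siRNA. It was the one bright gene whose control signal was highest in clone 1, and its clone differences were -0.29, 0.22 and 0.16. RPL27 (Entrez gene 6155) read 58662, 79416 and 72923 with TET siRNA, against 68350, 64568 and 70892 with control siRNA. Its clone 2 difference of 0.30 was the highest of all 52 genes, and its mean was 0.04. RPL41, a very short protein, had -0.29 (clone 1), 0.21 (clone 2) and -0.10 (clone 3).

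The 20 bright small-subunit genes had medians of -0.20, 0.17 and -0.05 in clones 1, 2 and 3. RPS15 and RPS23 reach towards the decoding centre, where codon and anticodon are matched. RPS23 (Entrez gene 6228) read 59773, 85704 and 79175 with TET siRNA, against 70530, 75581 and 82089 with control siRNA. Both TET siRNA extremes again lay outside the control range. The clone differences were -0.24, 0.18 and -0.05 for RPS23 and -0.26, 0.23 and -0.09 for RPS15. RPS3, at the mRNA entry, varied least over the clones, with differences of -0.10, 0.08 and -0.01 and an SD of 0.089. RPS28 (Entrez gene 6234), near the mRNA exit, read 35824, 42584 and 42027 with TET siRNA, against 39752, 36920 and 39836 with control siRNA. It was lower with TET siRNA in clone 1 and higher in clones 2 and 3. Its mean difference, 0.04 with an SE of 0.09, was the highest of the bright genes (limma adjusted p = 0.965).

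RPS6 (Entrez gene 6194) is the small-subunit protein that S6 kinase phosphorylates downstream of mTORC1. It read 54176, 77807 and 69953 with TET siRNA, against 61540, 65521 and 70949 with control siRNA. The groups overlapped, and the clone differences of -0.18, 0.25 and -0.02 gave a mean of 0.01 with an SE of 0.13. RPS16 (Entrez gene 6217) and RPS18 (Entrez gene 6222), proteins of the head of the small subunit, had the lowest small-subunit means, -0.09 and -0.08. RPS16 read 54545, 77618 and 68195 with TET siRNA, against 63744, 71264 and 77001 with control siRNA. RPS18 read 42028, 60133 and 53224 with TET siRNA, against 49435, 54134 and 58898 with control siRNA. Both were lower with TET siRNA in clones 1 and 3, with differences of -0.22 and -0.18 for RPS16 and of -0.23 and -0.15 for RPS18. Both were higher in clone 2, at 0.12 for RPS16 and 0.15 for RPS18. RPS9 and RPS15A had positive means of 0.03 and 0.03, with SEs of 0.09 and 0.10. Another probe set of RPS9, with a signal of 34107, was negative in every clone. It had -0.06, -0.13 and -0.02 in clones 1, 2 and 3, with a mean of -0.07.

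The role list for Diamond-Blackfan anaemia held 6 bright genes, RPS7, RPS10, RPS19, RPS24, RPL11 and RPL35A, with medians of -0.17, 0.17 and -0.04. Inherited mutations in these genes cause the disease, and the list does not name every gene known for it. RPS19 (Entrez gene 6223), the most often mutated of them, read 59199, 86264 and 75280 with TET siRNA, against 71136, 70231 and 76151 with control siRNA. Its SD over the clones, 0.28, was exceeded only by that of RPS4X (0.31) among the 52 genes, while its mean difference was 0.01. RPS4X (Entrez gene 6191), the X-linked small-subunit gene, read 44711, 70010 and 59058 with TET siRNA, against 55155, 57653 and 66509 with control siRNA. The clone differences were -0.30, 0.28 and -0.17. RPS25, which varied little, had -0.12, 0.05 and 0.04 in clones 1, 2 and 3, with an SD of 0.096, and RPS9 had the next smallest SD of the bright genes, 0.11.

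The 3 dim genes did not show the clone pattern of the bright ones. Of 25 further tested probe sets of the bright genes with signals below 10000, 3 had that pattern. Gene and brightness of the probe set therefore cannot be told apart for the 3 dim genes. RPL27A (Entrez gene 6157) read 1520, 1357 and 1682 with TET siRNA, against 1593, 1767 and 1863 with control siRNA. It was lower with TET siRNA in every clone, at -0.07, -0.38 and -0.15, although 1 of its TET siRNA values lay within the control range. Its mean of -0.20 with an SE of 0.12 did not pass in limma (adjusted p = 0.828, and 0.389 with the replicate block). RPL36A, on the X chromosome, read 201, 121 and 153 with TET siRNA, against 173, 131 and 154 with control siRNA. RPLP2, the partner of RPLP1 in the stalk, read 489, 413 and 528 with TET siRNA, against 432, 396 and 530 with control siRNA. In both genes clone 1 read higher with TET siRNA, at 0.22 for RPL36A and 0.18 for RPLP2.

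The clones were also compared with each other, whatever the treatment. With treatment in the fit, a limma F test over the clones gave 0 of 52 genes an adjusted p under 0.05, against 8.27% of all probe sets. The lowest adjusted p was 0.0903, for RPL3. Without the control array of clone 2, 21 genes passed, with 4600 of all 27306 probe sets. Without the TET siRNA array of that clone 3 passed, with 3881 of all, and without both arrays 14, with 4347 of all, where 2259 of all passed on the 6 arrays. With every array kept, 5 genes passed after loess scaling, with 2249 of all probe sets. Of 46 genes tested with the brightest probe set without a suffix, 4 passed, with 2259 of all. Where a gene's probe sets were averaged, 2 genes passed, and passing probe sets were not counted over all. At an unadjusted p under 0.05 it was 13 of 52, against 23.7% of all probe sets.

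The clone pattern was shared by probe sets of the same brightness that carry no ribosomal protein symbol. In the band of the 50th to the 70th percentile of signal, 10906 such probe sets had medians of 0.10 in clone 1 and 0.02 in clone 2. At the 98th to 99th percentile 543 probe sets had -0.09 and 0.01, and at the 99th to 99.5th percentile 263 had -0.12 and 0.08. In the top 0.5%, 169 had -0.18 and 0.14, with -0.02 in clone 3. Of the 194 probe sets at least as bright as the dimmest bright ribosomal protein gene, 87.1% were negative in clone 1 and positive in clone 2, and 88.7% were lowest in the TET siRNA array of clone 1. The medians of the 194 were -0.17, 0.13 and -0.02. Of the 194, 128 were assigned to a single gene and the others to several genes or to none. Which RNAs those others read was not checked. Among the named genes, HSP90AA1, a chaperone, had -0.26, 0.27 and 0.04. IRS4, an adaptor of insulin signalling abundant in HEK293 cells, had -0.25, 0.12 and 0.07. Both genes were picked after their values were seen.

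**Figure D3:**
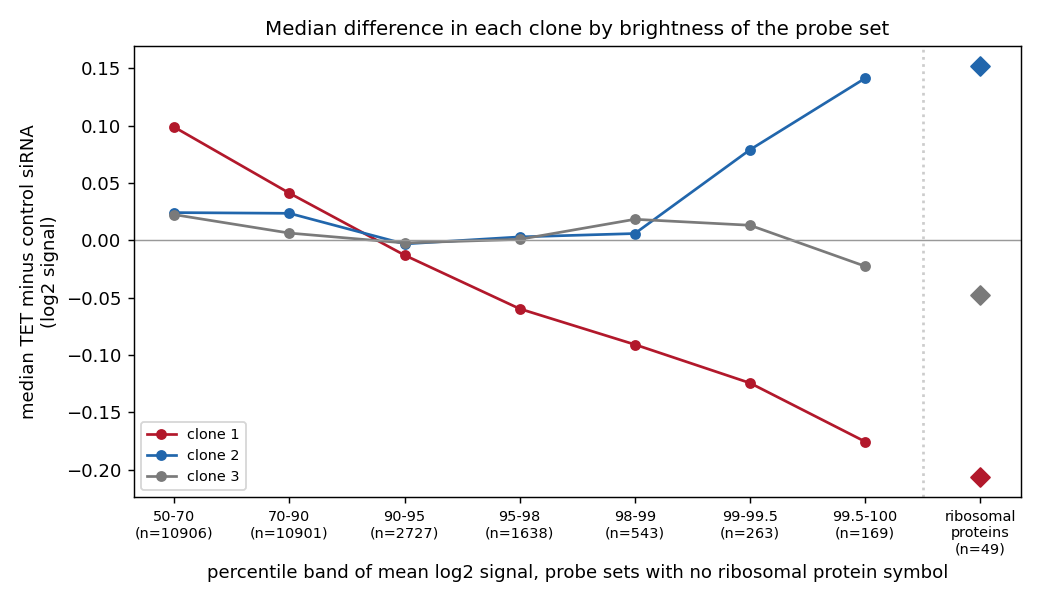
Median TET siRNA minus control siRNA on the log2 scale (vertical axis) in each clone for probe sets with no ribosomal protein symbol, in bands of mean signal (horizontal axis), with the 49 bright ribosomal protein genes as diamonds. Clone 1 runs from 0.10 in the lowest band to -0.18 in the top band, and clone 2 from 0.02 to 0.14.

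The upper end of the signal range moved with these values. The highest signal on an array was 64862, 90800 and 81334 with TET siRNA in clones 1, 2 and 3, against 71755, 80321 and 85202 with control siRNA. The brightest 1% of probe sets held 24.4%, 28.1% and 27.0% of all signal with TET siRNA, against 26.2%, 26.5% and 27.2% with control siRNA. The GAPDH 3′ to 5′ ratio, a check of RNA integrity, was 1.05 to 1.07 with TET siRNA and 1.04 to 1.08 with control siRNA. The actin 3′ to 5′ ratio was 2.15, 1.89 and 1.96 with TET siRNA in clones 1, 2 and 3, against 2.06, 2.07 and 2.01 with control siRNA. It was thus highest on the array where the bright genes were lowest and lowest on the array where they were highest, and its part in the clone differences was not tested.

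Rescaling the arrays moved the clone differences of the bright genes. After quantile normalization, which gives every array the same distribution of signals, their medians were -0.02, 0.00 and -0.01 in clones 1, 2 and 3, and the median SD over the clones was 0.04. Of the 49 genes, 14 were then negative in clone 1 and positive in clone 2. Centring each array on its median, which leaves the spread of the array as it was, gave -0.27, 0.13 and -0.05. Loess scaling fitted differences between arrays, not between treatments, against signal. It was fitted on probe sets with no ribosomal protein symbol and chosen after seeing the data. The medians were then -0.05, 0.10 and -0.06, and 39 of the 49 genes were negative in clone 1 and positive in clone 2. The 194 other bright probe sets moved alike, to -0.01, 0.00 and 0.01 after quantile normalization and -0.02, 0.09 and -0.03 after loess. Quantile normalization can also remove a true common change of the brightest genes. With these signals, 18 of the 52 genes had 1 sign in all clones, against 36.4% of all probe sets. RPL37A (-0.09), RPS16 (-0.08), RPS18 (-0.07) and RPLP1 (-0.06) had the lowest mean differences of the bright ones among these, and RPS9 (0.04) and RPS15A (0.04) the highest. None passed, the lowest adjusted p of the 52 genes being 0.814.

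**Figure D4:**
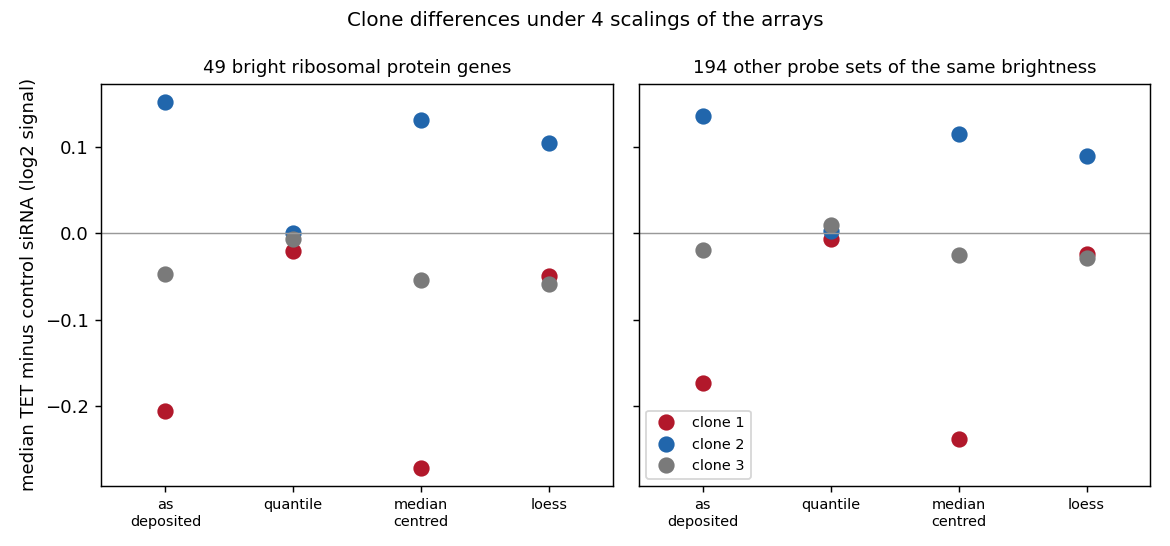
Median TET siRNA minus control siRNA on the log2 scale (vertical axis) in each clone under 4 scalings of the arrays (horizontal axis), for the 49 bright ribosomal protein genes and for 194 other probe sets as bright. As deposited, clones 1 and 2 of the ribosomal protein genes stand at -0.21 and 0.15, and after quantile normalization at -0.02 and 0.00.

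Brightness also separated probe sets of the same gene. A further 19 probe sets of 15 of these genes had signals above 30000, with medians of -0.17, 0.14 and -0.04, and 18 of the 19 were negative in clone 1 and positive in clone 2. The 25 with signals below 10000, from 16 genes, had medians of 0.18, 0.04 and 0.01, and 3 of the 25 had that pattern. The mean difference was positive in 20 of these 25, with a median of 0.09. A single gene could thus read lower or higher in clone 1 according to the probe set used. Probe sets with a suffix that marks possible cross-hybridisation served 39 of the 49 bright genes and had medians of -0.21, 0.15 and -0.05, against -0.17, 0.13 and -0.06 for the 10 without it. The 64 probe sets of several genes with a ribosomal protein symbol, 56 of them shared with a small nucleolar RNA, had 48 bright members, with medians of -0.16, 0.17 and -0.04. Bright genes with the pyrimidine start at an annotated base (31) had medians of -0.21, 0.15 and -0.05. Those without it at that base (12) had -0.21, 0.20 and -0.02. The 12 include RPS28, in which a pyrimidine run begins just after the annotated base.

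Lists of genes that work with the ribosome were read from the same fits. Of 21 tested genes of other TOP mRNAs, among them the elongation factor EEF1A1 and the growth-related TPT1, 0 passed in either limma fit and 0 had an unadjusted p under 0.05 without the clone term. Their medians were -0.16, 0.15 and -0.04 in clones 1, 2 and 3. Of the 21, 16 were negative in clone 1 and positive in clone 2, against 22.7% of all tested probe sets. Among the 194 bright probe sets with no ribosomal protein symbol the share was 87.1%, and this list had a median signal of 39898. EEF1A1 had -0.20, 0.25 and -0.01, and TPT1 had -0.22, 0.19 and -0.07. By the rule for named genes, PFDN5, a prefoldin subunit, had a mean difference of 0.12 and EIF3H, an initiation factor subunit, -0.16. The 8 tested paralogs and fusion partners had medians of -0.07, -0.08 and -0.03, with 0 passing and 2 at an unadjusted p under 0.05. Of all tested probe sets, 6.61% had such a p. RPL7L1, a paralog of RPL7, was negative in all clones at -0.29, -0.22 and -0.25 without passing in limma (adjusted p = 0.465, and 0.120 with the block). RPL26L1 had a mean difference of -0.22 (adjusted p = 0.709).

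**Figure D5:**
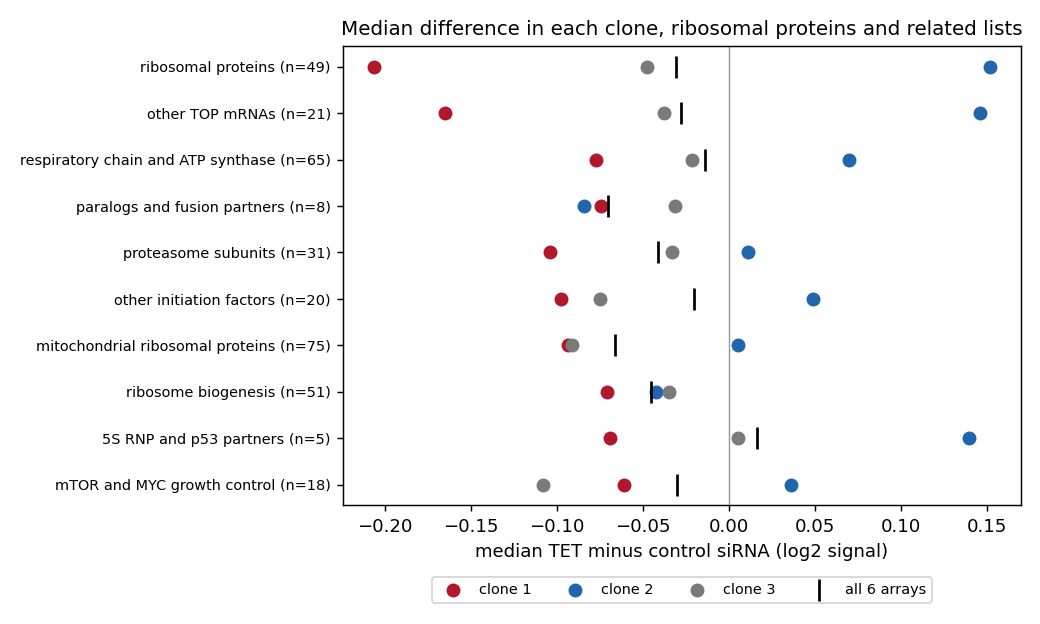
Median TET siRNA minus control siRNA on the log2 scale (horizontal axis) in each clone, with a tick for all 6 arrays, for the bright ribosomal protein genes and 9 related lists (rows). Other TOP mRNAs lie nearest to the ribosomal proteins in clones 1 and 2, at -0.16 and 0.15, and have the highest median signal of the 9 lists (39898).

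In the list of growth control genes, 18 were tested and 0 passed in limma without the clone term. At an unadjusted p under 0.05 there were 2, against 6.61% of all tested probe sets. With the replicate block 1.03% of all tested probe sets passed, and on simulated arrays that fit made more false calls than the nominal rate. The 1 gene of this list to pass there was RPS6KB1, which encodes S6 kinase 1, the enzyme that phosphorylates RPS6. Its signal averaged 6170 ± 343 with TET siRNA and 8428 ± 400 with control siRNA (SD, n = 3 each). The difference was -0.46, -0.43 and -0.46 in clones 1, 2 and 3 and -0.45 on average, with an SE of 0.08 (limma adjusted p = 0.198 without and 0.0079 with the block). RPS6KB1 differed little among clones, and the ribosomal protein it acts on, RPS6, had a mean difference of 0.01. MTOR (0.01), LARP1 (-0.06) and MYC (-0.13) did not pass in either fit.

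Of 51 tested genes of RNA polymerase I and ribosome biogenesis, 0 passed in either limma fit and 1 had an unadjusted p under 0.05, with 34 negative and 17 positive mean differences and a median of -0.05. NOP10, a box H/ACA small nucleolar RNP protein, had -0.21 and UTP3, a processome protein, -0.17. Of 75 mitochondrial ribosomal protein genes, 0 passed in either limma fit and 2 had an unadjusted p under 0.05, with 57 negative and 18 positive and a median of -0.07. MRPS26 had -0.27 (limma adjusted p = 0.454 without and 0.0834 with the block), at -0.23, -0.31 and -0.27 in clones 1, 2 and 3, and MRPL22 had -0.17. In this list 31 of 75 genes were negative in clone 1 and positive in clone 2, against 22.7% of all tested probe sets. The median signal of the list was 6959, and that pattern becomes more frequent with brightness. Among probe sets with no cytosolic ribosomal protein symbol it was found in 23.2% at the 90th to 95th percentile of signal. At the 95th to 98th percentile it was 32.7%. Of all 27306, 12457 had a negative and 14849 a positive mean difference, and 6.61% had an unadjusted p under 0.05.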

How the data were processed

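Per the labels, 200 ng of total RNA a sample was turned into biotin-labelled cRNA and read on Affymetrix arrays with 1 colour. The authors deposited linear intensities, 1 MAS5 signal per probe set and array. The submitters' processing notes name MAS5 with no version. The signals had been scaled before deposit, so they were taken to log2 without further normalization. MAS5 handles each array by itself, so a difference in signal range between arrays remains in the values. Of 54675 probe sets, 62 controls were left out. Platform annotation gave 1 gene for 41091 probe sets, several for 1801 and none for 11721, and 41037 of the first matched a RefSeq gene.

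Tests covered the 27306 probe sets in the upper 50% of mean log2 signal (all 6 arrays, geometric mean of at least 117), in limma 3.58.1 (R 4.3.3) with trended, robust empirical Bayes, two-sided, with Benjamini-Hochberg adjustment over all of them. SEs and 95% intervals come from that fit. Errors given as ± are SDs over 3 arrays. Values per clone are single differences without error. The number of arrays limits the precision. Without the block, p-values measure the spread between arrays of clones of 1 line, where clone and array cannot be told apart. With the block and in the F test, they measure the spread left after treatment and clone level are taken out.

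Clone number pairs the arrays, per the labels. The correlation across probe sets of 2 arrays' deviations from their groups was 0.493, 0.234 and 0.236 within clones 1, 2 and 3, with 0.219 the highest value between different clones. The blocked fit and the F test over clones were checked on simulated arrays, where both made more false calls than the nominal rate.

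The genes, roles and related lists were chosen with earlier results of these data known, and the limit of 12 for bright genes was set after their values were seen. Genes were named by a rule: those that pass, the 5 highest and 5 lowest means, the 3 extremes in each clone and in the SD over clones, those of 1 sign in all clones, and those of set roles, and in related lists the passing genes or the 2 of smallest p. EEF1A1, TPT1, MTOR, LARP1 and MYC were named beyond it, after their values were seen. Alternatives covered the block, brightness filter, pseudocount, scaling, choice of probe set, plain empirical Bayes and left-out arrays or clones. Plots were drawn with matplotlib 3.10.9.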

Additional observations from a re-analysis of the deposited data

Results flagged for a closer look

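The differences of the ribosomal protein genes had opposite signs in 2 clones under the same siRNAs, although none of the genes passed in limma for TET siRNA against control siRNA. Over all 52 genes the median difference, TET siRNA minus control siRNA, was -0.20 in clone 1 and 0.15 in clone 2, and 49 of the 52 were negative in clone 1 and positive in clone 2. That pattern was found in 22.7% of all tested probe sets and in 87.1% of the 194 probe sets as bright with no ribosomal protein symbol. After quantile normalization the medians were -0.02 in clone 1 and 0.00 in clone 2, and after loess scaling they were -0.05 and 0.10. The difference between the clones was not tested, since each clone has 1 array per treatment.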

How the results depend on the processing

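No alternative gave a ribosomal protein gene an adjusted p under 0.05 for TET siRNA against control siRNA in limma. The lowest adjusted p was 0.205, without clone 1 in both groups, where 121 of all tested probe sets passed. The median difference over the 52 genes was -0.03 and turned positive without the TET siRNA array of clone 1 (0.08), without clone 1 in both groups (0.05) and without the control array of clone 3 (0.01), with a lowest value of -0.12 without clone 2 in both groups. The cause was not tested.

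Over the 52 genes, quantile normalization brought the clone 1 median to -0.0199, against -0.20 as deposited, and the median SD over clones to 0.0442, against 0.17, and loess brought that SD to 0.0917. For TET siRNA against control siRNA, 4 probe sets of all tested passed in limma, against 282 with the replicate block, 1 with plain empirical Bayes, 14 in the upper 30% of probe sets, 2 to 4 without an array and 0 to 121 without a clone (121 without clone 1). For the difference between clones 2259 passed, against 847 with no filter, 1 with plain empirical Bayes and 2249 after loess. It was 425 to 4600 without an array and 29 to 4347 without a clone. Of the ribosomal protein genes 0 passed for that difference, against 2 where a gene's probe sets were averaged and 5 after loess. With the brightest probe set without a suffix it was 4 of 46, where 2259 of all passed. It was 0 to 21 without an array (21 without the control array of clone 2) and 0 to 14 without a clone (14 without clone 2). The replicate block changed no call of a ribosomal protein gene. RPS6KB1, called with the replicate block, also passed without clone 1 in both groups (adjusted p = 0.0349) and in no other alternative run.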

Other observations

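The fit with the replicate block passed 1.03% of all tested probe sets and made more false calls than the nominal rate on simulated arrays. NDUFA8, a subunit of respiratory complex I, passed in limma with that block (adjusted p = 0.0191) and not without it (0.226). Its signal averaged 5940 ± 294 with TET siRNA and 8016 ± 376 with control siRNA (SD, n = 3 each), and it was lower with TET siRNA in each clone, at -0.47, -0.28 and -0.55 on the log2 scale. It was the one gene to pass of 65 tested subunits of the respiratory chain and ATP synthase, whose median differences were -0.08, 0.07 and -0.02 in clones 1, 2 and 3. NDUFS1, another complex I subunit, had a mean difference of -0.19. Of 5 tested partners of the 5S RNP and p53, 0 passed in either limma fit. At an unadjusted p under 0.05, where 6.61% of all tested probe sets lay, there was 1. This was MDM2, the p53 ligase that RPL11 can bind, which had differences of 0.19, 0.23 and 0.22 in clones 1, 2 and 3 and did not pass in limma (adjusted p = 0.738, and 0.157 with the block). GTF3A, which binds 5S rRNA, had a mean difference of 0.12.

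Of 31 proteasome subunits, 0 passed in either limma fit and 1 had an unadjusted p under 0.05, with 24 negative and 7 positive mean differences. Over all 27306 tested probe sets, 12457 mean differences were negative and 14849 positive, with 6.61% at an unadjusted p under 0.05. PSMA5 had -0.18 and PSMC2 -0.16. Of 20 other initiation factors, 0 passed in either limma fit and 2 had an unadjusted p under 0.05, with EIF2B2 at -0.28 and EIF2S1 at -0.21. The 3 tested snoRNA host genes, GAS5, ZFAS1 and EPB41L4A-AS1, had mean differences of -0.16, 0.00 and -0.02 and 0 passed, with 0 at an unadjusted p under 0.05.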
